A study of Mus musculus with 32 samples.

Results

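The 5 genes described here encode C/EBP transcription factors: Cebpa, Cebpb, Cebpd, Cebpe and Cebpg. They were chosen by name out of 21883 protein-coding genes, and for each of 30 CUT&Tag libraries the deposited peaks were taken within the gene plus 5 kb on each side and, for H3K4me1, also within 100 kb. The cells were HoxB8 cells, a mouse bone marrow line held as dividing progenitors by an estrogen-dependent HoxB8, and all groups had been without estrogen for 48 h. The double cells carried the Asxl1 guide B2 and, from the pMICH vector, CSF3R T618I, a G-CSF receptor that signals without its ligand. The Asxl1 guide cells carried the same guide with the empty pMICH vector, the CSF3R T618I cells a non-targeting guide with the receptor, and the control cells the non-targeting guide with the empty vector. Each mark (H3K27me3, H2AK119ub and H3K4me1) had 2 double, 3 Asxl1 guide, 3 CSF3R T618I and 2 control libraries. Only 1 Asxl1 guide was used, and the receptor was expressed from a vector rather than from its own gene.

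C/EBP proteins are leucine-zipper factors that bind DNA as pairs and drive the granulocyte and monocyte programme of the bone marrow. C/EBPα is needed for the step from myeloid progenitor to granulocyte-monocyte progenitor, C/EBPβ for the granulocyte output raised in infection, and C/EBPε for the late steps in which secondary granules form. C/EBPδ is an acute-phase factor of the inflammatory response, and C/EBPγ lacks a classical activation domain and acts as a partner of other leucine-zipper proteins. G-CSF receptor signalling runs in part through STAT factors. Asxl1 works with the deubiquitinase Bap1, which removes the H2AK119ub mark that Polycomb repressive complex 1 writes. H3K27me3 is the product of Polycomb repressive complex 2, and H3K4me1 lies at enhancers and on the flanks of promoters.

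The peak lists give positions only, so the value used is the fraction of a window that lay in peaks. Sequencing depth is unknown, and the length of the lists limits how small a difference can be seen. H3K4me1 lists covered 26.6 to 47.2 Mb, H2AK119ub lists 11.8 to 39.1 Mb and H3K27me3 lists 4.73 to 53.0 Mb, the last 2 values both from Asxl1 guide libraries. Each library pools many cells, so a mark in fewer cells and a weaker mark in every cell cannot be told apart. The labels do not say whether libraries of 1 genotype came from separate cultures, and p-values measure only the spread between these libraries. H3K4me1 covered some of the gene plus 5 kb of all 8 progenitor marker genes, with a mean fraction of 0.187 to 0.283 per library. Of 7 B and T cell markers 2 had any H3K4me1 peak, with a mean of 0.000607 to 0.00812, and Pax5, Cd3e and Bcl11b were among those with none. Of 7 fibroblast and endothelial markers 3 had a peak, with a mean of 0.0555 to 0.0878, and Col1a2, Pdgfra, Cdh5 and Kdr had none. Erythroid and megakaryocyte markers had one in 6 of 7 (all but Epor), with a mean of 0.0529 to 0.0735 in double, 0.0272 to 0.0324 in Asxl1 guide, 0.0156 to 0.0321 in CSF3R T618I and 0.0354 to 0.0417 in control libraries. The part of these differences in the results below was not tested.

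The C/EBP genes carried H3K4me1 and, in part, H2AK119ub, but no H3K27me3. In the gene plus 5 kb, 48 of 50 combinations of gene and library had an H3K4me1 peak and 23 of 50 an H2AK119ub peak. None of the 50 had an H3K27me3 peak. Over all protein-coding genes, 39.6% had an H3K27me3 peak in at least 1 library within the same distance, 54.1% an H2AK119ub peak and 37.4% an H3K4me1 peak. These shares count genes, not combinations of gene and library, so the 2 measures are not alike. Counted by gene, every C/EBP gene had H3K4me1 in at least 1 library, Cebpa, Cebpb and Cebpg had H2AK119ub, and none had H3K27me3.

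Differences were tested with limma over every gene window that reached a fraction of 0.05 (0.01 for 100 kb) in 2 or more libraries of the mark. A gene was called at a Benjamini-Hochberg adjusted p under 0.05. The comparisons of double with CSF3R T618I cells and of double with Asxl1 guide cells share the double libraries, and both single genotypes were set against the same controls. By this filter no C/EBP gene was tested for H3K27me3, 2 (Cebpa and Cebpg) were tested for H2AK119ub, and all 5 for H3K4me1.

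For H3K4me1 in the gene plus 5 kb, double cells had less coverage than CSF3R T618I cells at Cebpg and Cebpd, and none of the 5 genes was called higher. That is 2 of 5 genes lower, where 10.6% of the 3987 windows tested were called, 8.38% lower and 2.26% higher. Cebpd was tested only through CSF3R T618I libraries, where it is high, so its call follows in part from how windows were selected. Against Asxl1 guide cells, double cells had less coverage at Cebpg and more at Cebpe, where 17.8% of all windows were called in either direction, 9.98% higher and 7.83% lower. No C/EBP gene was called in Asxl1 guide against control cells (0.0502% of windows), in CSF3R T618I against control cells (9.28%) or for the interaction of the guide and the receptor (0.853%). At an unadjusted p under 0.05 in limma the counts were 0, 0 and 3 of 5, against 269, 944 and 511 of all 3987 windows.

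**Figure D1:**
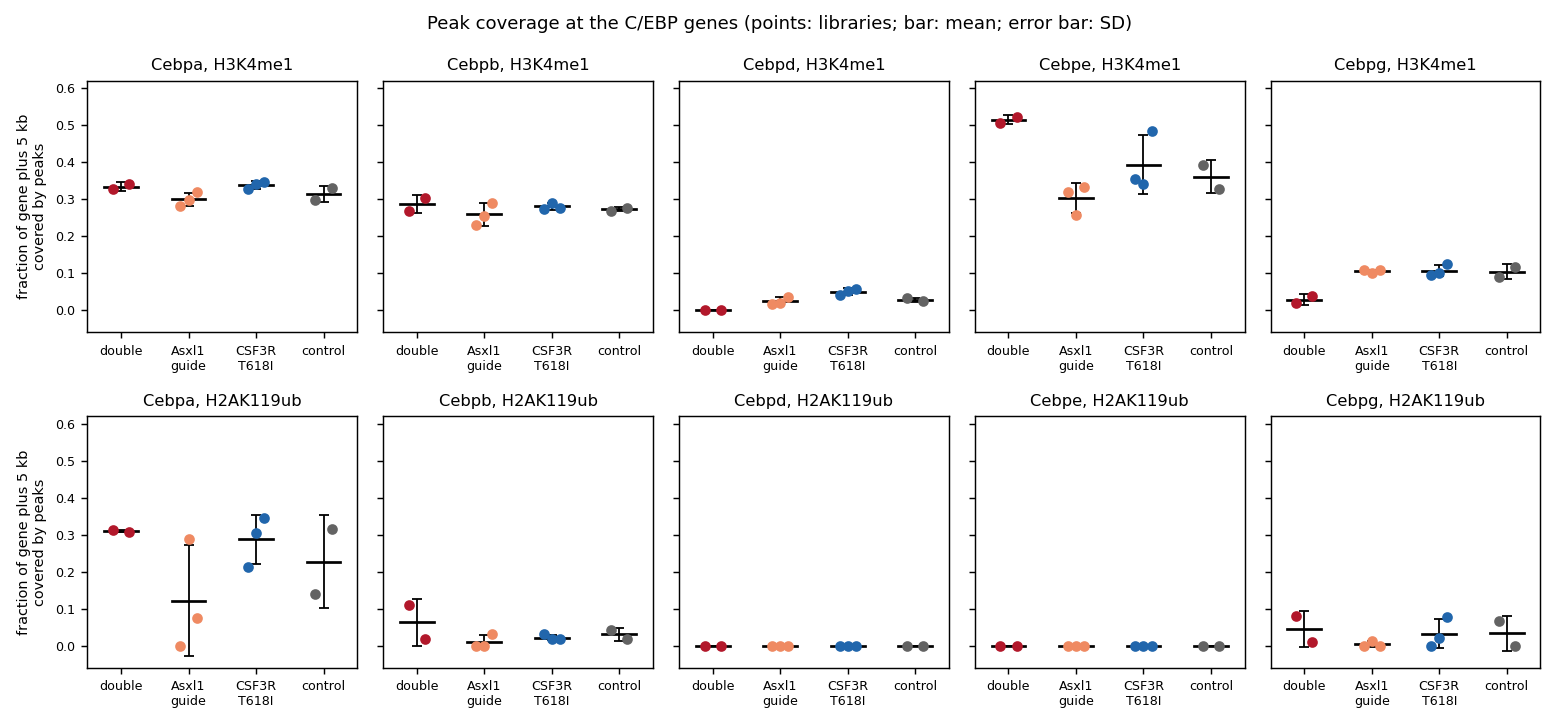
Fraction of the gene plus 5 kb that lay in H3K4me1 peaks (top row) and H2AK119ub peaks (bottom row) for the 5 C/EBP genes, with 1 point per library, the mean as a bar and the SD as an error bar, in double (n = 2), Asxl1 guide (n = 3), CSF3R T618I (n = 3) and control (n = 2) cells. Double libraries were lowest at Cebpg and Cebpd and highest at Cebpe for H3K4me1, while Cebpd and Cebpe had no H2AK119ub. H3K27me3 is not drawn because it was 0 in every library.

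Cebpa, the gene for the factor at the entry to the granulocyte and monocyte lineage, lies at chr7:35119293-35121928 (mm10). H3K4me1 covered fractions of 0.327 and 0.343 of its 5 kb window in double libraries, 0.283, 0.299 and 0.319 in Asxl1 guide libraries, 0.327, 0.343 and 0.346 in CSF3R T618I libraries, and 0.299 and 0.331 in control libraries. Double libraries lay above Asxl1 guide libraries, and control libraries overlapped all 3 other groups. All double libraries lay above all Asxl1 guide libraries at 22.5% of the 3987 windows tested. The difference with the lowest p was 0.034 (SE 0.017) in double against Asxl1 guide cells, with adjusted p = 0.194 by limma. The gene itself had no H3K4me1 peak in any of the 10 libraries. The marked part was an intergenic block at chr7:35122551-35130650, which began 0.622 kb to the right of the gene and was present in all 10 libraries. IgG peaks covered 1450 bp of this block.

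H2AK119ub lay on Cebpa itself in 8 of 10 libraries and across its promoter in 7. It covered 0.313 and 0.309 of the window in double libraries, 0, 0.289 and 0.0752 in Asxl1 guide libraries, 0.214, 0.305 and 0.344 in CSF3R T618I libraries, and 0.138 and 0.317 in control libraries. In Asxl1 guide cells 1 library had no peak at all in the window, and the other two lay on either side of the lower control library. The mean was 0.311 ± 0.003 in double cells (SD, n = 2) and 0.121 ± 0.150 in Asxl1 guide cells (SD, n = 3), a difference of 0.189 (SE 0.085). This was not called (limma adjusted p = 0.198), and 9.42% of the 4269 windows tested for this mark were called in that comparison. None of the other H2AK119ub differences at Cebpa passed either. For this mark 8.92% of windows were called in double against CSF3R T618I cells, 6.44% in Asxl1 guide against control cells, 0.422% in CSF3R T618I against control cells and 0.0% for the interaction (456 of 4269 at an unadjusted p under 0.05 in limma).

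The promoter sequences below are shown because H2AK119ub peaks reached them. They run from 250 bases before to 50 after the gene start (RefSeq, GRCm38.p6, the assembly behind mm10). The tables used here hold 3 of the 5 genes: Cebpa (chr7:35119043-35119342, plus strand), Cebpg (chr7:35056517-35056816, minus strand) and Cebpb (chr2:167688665-167688964, plus strand). Capitals mark matches on either strand to TATAAA (the TATA box), to GGGCGG (the GC box), to TGACG (part of a CRE site), to CCAAT (the CCAAT box), to TTGCNNAA (a C/EBP-type site) or to TTCNNNGAA (a STAT-type site). Overlapping matches run together.
Cebpa: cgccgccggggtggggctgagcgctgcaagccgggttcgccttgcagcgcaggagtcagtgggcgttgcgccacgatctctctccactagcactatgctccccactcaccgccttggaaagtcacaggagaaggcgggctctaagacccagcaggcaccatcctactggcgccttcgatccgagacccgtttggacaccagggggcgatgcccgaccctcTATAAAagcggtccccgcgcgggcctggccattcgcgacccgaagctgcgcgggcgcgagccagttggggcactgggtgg
Cebpg: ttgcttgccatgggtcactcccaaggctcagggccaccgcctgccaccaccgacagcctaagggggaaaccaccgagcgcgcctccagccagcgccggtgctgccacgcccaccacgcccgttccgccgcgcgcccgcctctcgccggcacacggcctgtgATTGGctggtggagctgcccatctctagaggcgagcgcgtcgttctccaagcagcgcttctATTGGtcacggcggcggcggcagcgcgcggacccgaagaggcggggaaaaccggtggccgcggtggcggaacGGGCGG
Cebpb: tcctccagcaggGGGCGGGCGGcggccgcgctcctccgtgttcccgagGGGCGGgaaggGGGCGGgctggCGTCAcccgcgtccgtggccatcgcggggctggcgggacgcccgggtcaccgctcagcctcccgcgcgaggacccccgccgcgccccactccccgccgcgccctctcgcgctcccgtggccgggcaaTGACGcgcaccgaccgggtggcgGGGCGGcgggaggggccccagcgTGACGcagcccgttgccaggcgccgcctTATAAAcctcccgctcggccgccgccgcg

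An H2AK119ub peak covered all 300 bases of the Cebpa promoter in 7 of 10 libraries: both double, 1 Asxl1 guide, all 3 CSF3R T618I and 1 control library. It touched the Cebpg promoter in 2 of 10 libraries, over 166 bases in 1 double and 216 bases in 1 CSF3R T618I library. It touched the Cebpb promoter in 1 of 10, a double library, over all 300 bases. An H3K4me1 peak touched only the Cebpb promoter, in 1 double library and over 86 bases, and H3K27me3 touched none of the 3. All 3 promoters were rich in CpG, with 29 CpG in Cebpa, 38 in Cebpg and 50 in Cebpb, against a median of 7 over 32544 promoters of the same length. Both Cebpa and Cebpb held 1 TATA box match, which 13.6% of all promoters hold. Cebpb held 5 GC box and 3 TGACG matches, which 35.9% and 20.9% of promoters hold at least once. Cebpg held 1 GC box match and 2 CCAAT box matches, and 37.4% of promoters hold the CCAAT box. Neither the C/EBP-type letters (10.8% of promoters) nor the STAT-type letters (8.33%) occurred in these 3 windows. The merged IgG list shows where tagmentation occurs without a specific antibody. It pools 1 Asxl1 guide and 1 CSF3R T618I library, with none from double or control cells. Its peaks covered 208 bases of the Cebpa promoter and none of the other 2. The part of this background in the H2AK119ub peaks was not tested.

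Within 100 kb, Cebpa was the only C/EBP gene with H3K27me3. Its nearest H3K27me3 peak lay 38.0 to 63.6 kb from the gene, and 0.0316 to 0.102 of the 100 kb window was covered. For the other 4 genes the nearest H3K27me3 peak was at least 103 kb away in each library: 103 to 129 kb for Cebpg, 121 to 126 kb for Cebpb, 133 to 205 kb for Cebpe and 216 to 324 kb for Cebpd. This held also for the Asxl1 guide library whose H3K27me3 list was the longest at 53.0 Mb.

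Cebpg, whose product pairs with other leucine-zipper proteins, lies at chr7:35046422-35056566 on the minus strand, 62.7 kb to the left of Cebpa. H3K4me1 covered 0.0188 and 0.0387 of its 5 kb window in double libraries, 0.108, 0.101 and 0.108 in Asxl1 guide libraries, 0.0958, 0.101 and 0.126 in CSF3R T618I libraries, and 0.0908 and 0.118 in control libraries. Both double libraries lay below the other 8, which overlapped one another. Of the 3987 windows tested, 33.6% had all double below all CSF3R T618I libraries, and 24.6% had all double below all Asxl1 guide libraries. The mean was 0.0287 ± 0.0140 in double cells, 0.106 ± 0.004 in Asxl1 guide cells, 0.107 ± 0.016 in CSF3R T618I cells and 0.104 ± 0.019 in control cells (SD, n = 2, 3, 3 and 2). Coverage in double cells fell by 0.079 (SE 0.016) against CSF3R T618I cells (limma adjusted p = 0.0195) and by 0.077 (SE 0.016) against Asxl1 guide cells (limma adjusted p = 0.0134). The interaction was -0.080 (SE 0.022) and was not called (limma adjusted p = 0.184). Without double replicate 1 the adjusted p was 0.0698 against CSF3R T618I cells and 0.0703 against Asxl1 guide cells, so neither call held. With IgG-overlapping peaks left out the window no longer reached the minimum.

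The loss at Cebpg was in 1 region, chr7:35036201-35043800, which lies inside the neighbouring gene Pepd (a peptidase gene) and ends 2.62 kb to the left of Cebpg, on the side of its 3′ end. Of its 7.6 kb, peaks covered 500 and 850 bp in double libraries, 6250, 5950 and 5450 bp in Asxl1 guide libraries, 5700, 4950 and 7400 bp in CSF3R T618I libraries, and 6100 and 6850 bp in control libraries. The region was seen in all 10 libraries but shrank to a short remnant in both double ones. The covered fraction fell by 0.70 in double against CSF3R T618I cells (limma adjusted p = 0.00545) and by 0.69 in double against Asxl1 guide cells (limma adjusted p = 0.00465). Of 22842 H3K4me1 regions tested, 9.6% were called in the first of these comparisons and 17.1% in the second. The region holds an IgG peak of 550 bp. When whole peaks that overlap an IgG peak were left out, the differences were -0.001 and -0.019, both with adjusted p = 1.0, since that setting leaves out whole peaks, the broad ones of the other genotypes included.

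**Figure D2:**
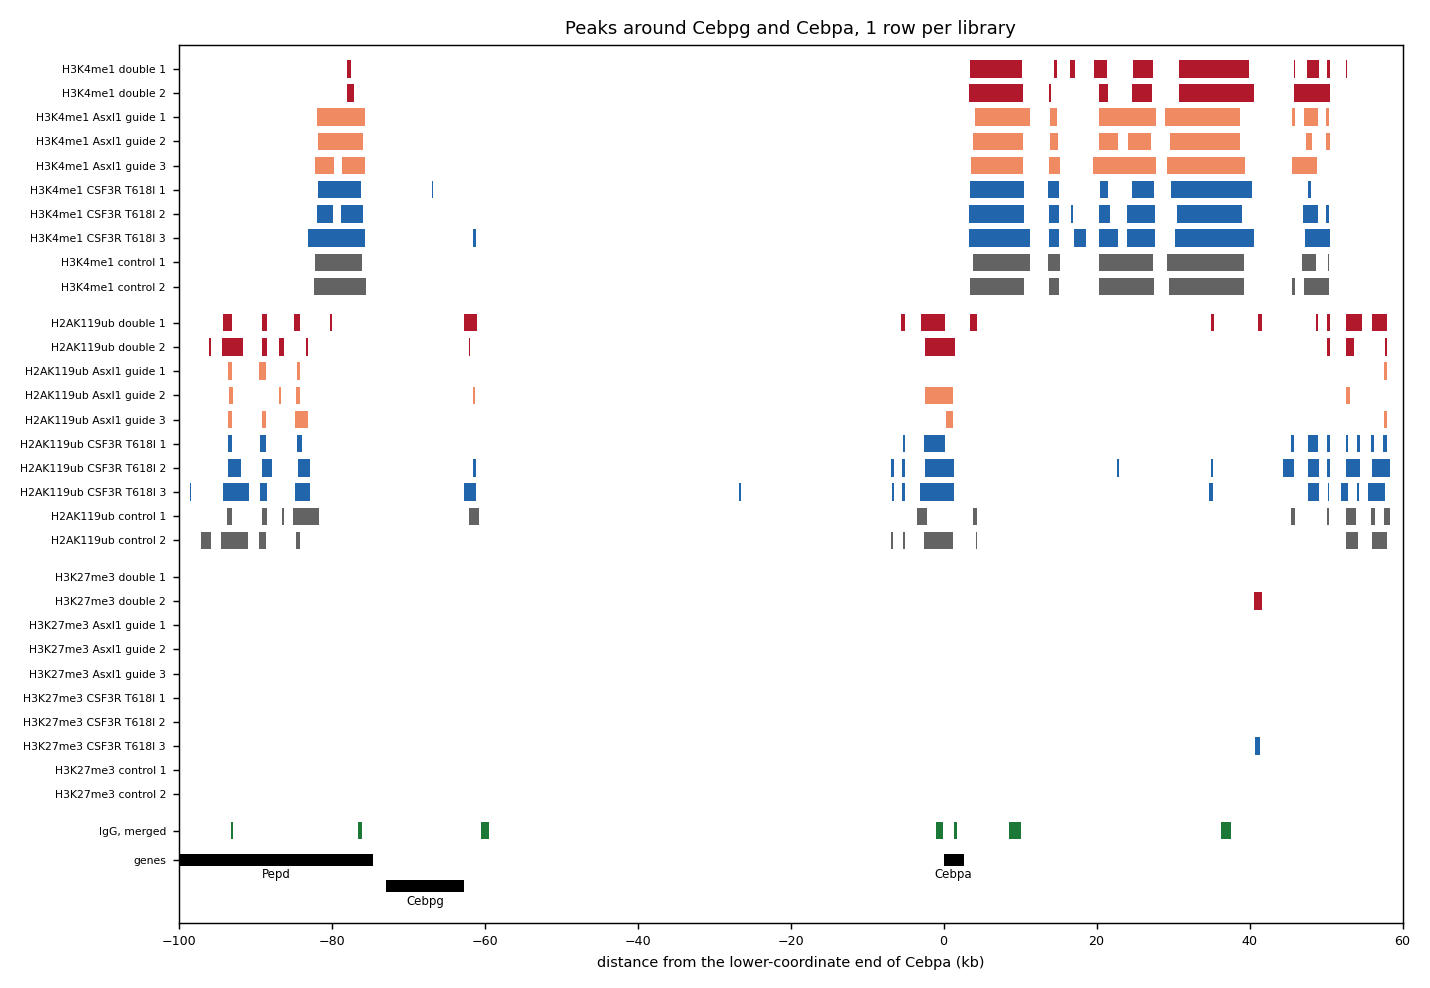
Map of the peaks around Cebpg and Cebpa by distance in kb from the lower-coordinate end of Cebpa, with 1 row per library for H3K4me1, H2AK119ub and H3K27me3, then the merged IgG peaks and the genes. The H3K4me1 block left of Cebpg is short in both double libraries and broad in the other 8, 5 of the 6 blocks right of Cebpa are present in all 10, and H2AK119ub covers the Cebpa promoter in 7 of 10.

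H2AK119ub near Cebpg lay at its other end, 0.034 to 2.03 kb to the right of the gene. It covered 0.0794 and 0.00993 of the 5 kb window in double libraries, 0, 0.0124 and 0 in Asxl1 guide libraries, 0, 0.0199 and 0.0769 in CSF3R T618I libraries, and 0.0670 and 0 in control libraries. The groups overlapped, and no comparison was called, the lowest limma adjusted p being 0.443.

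No H3K4me1 region lay between Cebpg and Cebpa, and 6 of the 7 within 100 kb of Cebpa were to its right. At chr7:35132901-35134500, 13.6 to 15.2 kb to the right of the start of Cebpa, peaks covered 400 and 200 bp in double libraries, 1000, 1050 and 1450 bp in Asxl1 guide libraries, 1450, 1300 and 1300 bp in CSF3R T618I libraries, and 1500 and 1350 bp in control libraries. Both double libraries were again the lowest. Among the 22842 regions tested, all double lay below all CSF3R T618I libraries at 19.6%, and below all Asxl1 guide libraries at 15.6%. The fraction fell by 0.66 in double against CSF3R T618I cells (limma adjusted p = 0.00758) and by 0.54 in double against Asxl1 guide cells (limma adjusted p = 0.0127). This region holds no IgG peak.

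The larger neighbouring regions of Cebpa were not called. The block at chr7:35148301-35159850, 29.0 to 40.6 kb to the right of the gene start, was covered over 9150 and 9800 bp in double libraries, 9750, 9050 and 10150 bp in Asxl1 guide libraries, 10600, 8400 and 10250 bp in CSF3R T618I libraries, and 10050 and 9800 bp in control libraries. Its groups overlapped, and the lowest limma adjusted p was 0.955. IgG peaks covered 1400 bp of it. The block at chr7:35138851-35147100 was covered over 4350 and 3800 bp in double, 7550, 5450 and 8200 bp in Asxl1 guide, 3800, 5150 and 6250 bp in CSF3R T618I and 7100 and 7150 bp in control libraries. Double against Asxl1 guide cells gave -0.36 there, with limma adjusted p = 0.0959. Also seen in all 10 libraries were chr7:35122551-35130650 and chr7:35164851-35169750, with lowest limma adjusted p of 0.742 and 0.513.

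Cebpe, the gene of the late granulocyte factor, lies at chr14:54710363-54712174. H3K4me1 covered 0.507 and 0.524 of its 5 kb window in double libraries, 0.321, 0.257 and 0.333 in Asxl1 guide libraries, 0.355, 0.342 and 0.486 in CSF3R T618I libraries, and 0.393 and 0.329 in control libraries. Both double libraries lay above the other 8, and 1 CSF3R T618I library came close to them. Of the 3987 windows tested, 6.97% had all double above all CSF3R T618I libraries, and 22.5% had all double above all Asxl1 guide libraries. The mean was 0.515 ± 0.012 in double cells, 0.304 ± 0.041 in Asxl1 guide cells, 0.394 ± 0.080 in CSF3R T618I cells and 0.361 ± 0.045 in control cells (SD, n = 2, 3, 3 and 2). Coverage rose by 0.21 (SE 0.04) in double against Asxl1 guide cells (limma adjusted p = 0.0143). Against CSF3R T618I cells the difference was 0.12 (SE 0.04) and was not called (limma adjusted p = 0.113), and the interaction was 0.18 (SE 0.06) with limma adjusted p = 0.276. The erythroid and megakaryocyte marker list was also highest in double libraries (0.0529 to 0.0735), and its part in this result was not tested. The call against Asxl1 guide cells was lost without double replicate 1 (adjusted p = 0.0723) and without double replicate 2 (adjusted p = 0.0649). It was also lost with no filter (adjusted p = 0.0637), and with IgG-overlapping peaks left out the difference was -0.008 (adjusted p = 0.984), the 450 bp IgG peak there touching the left end of the gene. Windows of 2 kb each side lost it too, as did any overlap, since every library had a peak in the window.

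The bulk of the Cebpe signal was a domain at chr14:54701401-54710550 that ends at the left end of the gene and was seen in all 10 libraries. It was covered over 8100 and 9150 bp in double libraries, 7750, 4200 and 7850 bp in Asxl1 guide libraries, 7900, 8000 and 8650 bp in CSF3R T618I libraries, and 8600 and 7800 bp in control libraries. The 3 Asxl1 guide libraries lay below the double libraries, while control libraries overlapped each of the other groups. All double libraries lay above all Asxl1 guide libraries at 23.4% of the 22842 regions tested. No comparison was called, the lowest limma adjusted p being 0.304. On the other side, chr14:54712101-54713150 overlaps the right end of the gene. It was listed in both double libraries and 2 of 3 CSF3R T618I libraries and in no Asxl1 guide or control library, with a mean fraction of 0.81 in double, 0 in Asxl1 guide, 0.41 in CSF3R T618I and 0 in control cells. Double against Asxl1 guide cells gave limma adjusted p = 0.0685 for it. H2AK119ub and H3K27me3 were 0 in the 5 kb window in all libraries of these marks, and the nearest H2AK119ub peak lay 11.3 to 68.9 kb away.

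Further regions right of Cebpe, inside Slc7a8 (an amino acid transporter gene), had more H3K4me1 in double than in Asxl1 guide cells. At chr14:54748101-54757300, which was seen in all 10 libraries, peaks covered 8900 and 8750 bp in double libraries, 4950, 3800 and 4800 bp in Asxl1 guide libraries, 8800, 7400 and 9200 bp in CSF3R T618I libraries, and 4550 and 6450 bp in control libraries. Double and CSF3R T618I libraries were high, and Asxl1 guide and control libraries were low. Among the 22842 regions tested, all double lay above all Asxl1 guide libraries at 23.4%, and all CSF3R T618I above all control libraries at 19.5%. The rise in double against Asxl1 guide cells was 0.47 (limma adjusted p = 0.0179), and CSF3R T618I against control cells gave 0.32 and was not called (limma adjusted p = 0.107). Without double replicate 1 the adjusted p against Asxl1 guide cells was 0.0555.

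The region chr14:54724001-54725650 had the same order. Peaks covered 1650 and 1450 bp in double libraries, 900, 0 and 750 bp in Asxl1 guide libraries, 1350, 1600 and 1400 bp in CSF3R T618I libraries, and 850 and 450 bp in control libraries, and the rise in double against Asxl1 guide cells was 0.61 (limma adjusted p = 0.0423). That call was lost in 8 of 10 fits that left out 1 library, over which the adjusted p was 0.0400 to 0.209. At chr14:54775301-54776400 peaks covered 450 and 1100 bp in double libraries, none in the 3 Asxl1 guide or the 3 CSF3R T618I libraries, and 200 and 0 bp in control libraries. This gave a rise of 0.70 against CSF3R T618I cells (limma adjusted p = 0.0289) and of 0.70 against Asxl1 guide cells (limma adjusted p = 0.0192). That region entered the test through the double libraries, since only 3 libraries list it, and a difference there follows in part from how it was selected. The call against CSF3R T618I cells was lost in 6 of 10 fits that left out 1 library (adjusted p 0.000370 to 0.0707), and the call against Asxl1 guide cells without Asxl1 guide replicate 1 (0.0544) or 3 (0.0574). Of the other regions near Cebpe, chr14:54767501-54771350, chr14:54788101-54797000 and chr14:54807101-54810300 were seen in all 10 libraries and were not called, their lowest limma adjusted p being 0.421, 0.0681 and 0.0689.

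Cebpd, the acute-phase member, lies at chr16:15887286-15889545 and had the least H3K4me1. It covered 0 and 0 of the 5 kb window in double libraries, 0.0163, 0.0204 and 0.0367 in Asxl1 guide libraries, 0.0408, 0.0530 and 0.0571 in CSF3R T618I libraries, and 0.0326 and 0.0245 in control libraries. No peak was listed in the double libraries, and the CSF3R T618I libraries lay above all others. Of the 3987 windows tested, 28.4% had all CSF3R T618I above all control libraries, and 33.6% had all CSF3R T618I above all double libraries. The difference of double against CSF3R T618I cells was -0.050 (SE 0.013), with limma adjusted p = 0.0479, just inside the threshold. Only 2 libraries, both CSF3R T618I, reached the minimum of 0.05, so the gene was tested through the group where it was high. With no filter the adjusted p was 0.0175. The call was lost in 8 of 10 fits that left out 1 library, with an adjusted p of 0.0459 to 0.117, and with peaks shorter than 400 bp left out (adjusted p = 0.101).

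The signal at Cebpd came from 1 region, chr16:15890551-15891250, to the right of the gene and inside Spidr (a DNA repair scaffold gene) that overlaps the end of Cebpd. Peaks covered 0 and 0 of its 700 bp in double libraries, 200, 250 and 450 bp in Asxl1 guide libraries, 500, 650 and 700 bp in CSF3R T618I libraries, and 400 and 300 bp in control libraries. The fraction fell by 0.88 in double against CSF3R T618I cells (limma adjusted p = 0.00502). Against Asxl1 guide cells it was -0.43 and was not called (limma adjusted p = 0.0673). The call against CSF3R T618I cells held in each of the 14 alternatives that gave a value. An IgG peak of 250 bp lies within the region, and with IgG-overlapping peaks left out the region was no longer tested.

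A second region in Spidr, chr16:15930051-15932300, was covered over 350 and 0 bp in double libraries, 1800, 1550 and 2250 bp in Asxl1 guide libraries, 1300, 0 and 1350 bp in CSF3R T618I libraries, and 1700 and 1550 bp in control libraries. The fraction fell by 0.75 in double against Asxl1 guide cells (limma adjusted p = 0.0299), while 1 CSF3R T618I library had no peak there either. The call was lost in 6 of 10 fits that left out 1 library, over which the adjusted p was 0.00572 to 0.130. None of the 4 regions within 100 kb of Cebpd was seen in all 10 libraries. H2AK119ub and H3K27me3 were 0 in its 5 kb window throughout, and only 2 of 10 libraries had an H2AK119ub peak within 100 kb.

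Cebpb, the gene of the factor used in emergency granulocyte production, lies at chr2:167688915-167690432. H3K4me1 covered 0.269 and 0.304 of its 5 kb window in double libraries, 0.230, 0.256 and 0.291 in Asxl1 guide libraries, 0.273, 0.291 and 0.278 in CSF3R T618I libraries, and 0.269 and 0.278 in control libraries. All groups overlapped, and the difference with the lowest p, in double against Asxl1 guide cells, was 0.027 (SE 0.020) with limma adjusted p = 0.374. The peak lay to the left of the gene in each library, within the region chr2:167685201-167688750. No library had H3K4me1 on the gene itself.

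H2AK119ub at Cebpb covered 0.109 and 0.0174 of the window in double libraries, 0, 0 and 0.0304 in Asxl1 guide libraries, 0.0304, 0.0174 and 0.0174 in CSF3R T618I libraries, and 0.0434 and 0.0174 in control libraries. Only 1 library, a double one, reached the minimum, and the gene was not tested for this mark. Its peak of 850 bp spanned the gene start, the second double library had a peak of 200 bp on the gene, and in the other 6 libraries with a peak it lay to the left, between -3.66 and -3.16 kb from the gene start.

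**Figure D3:**
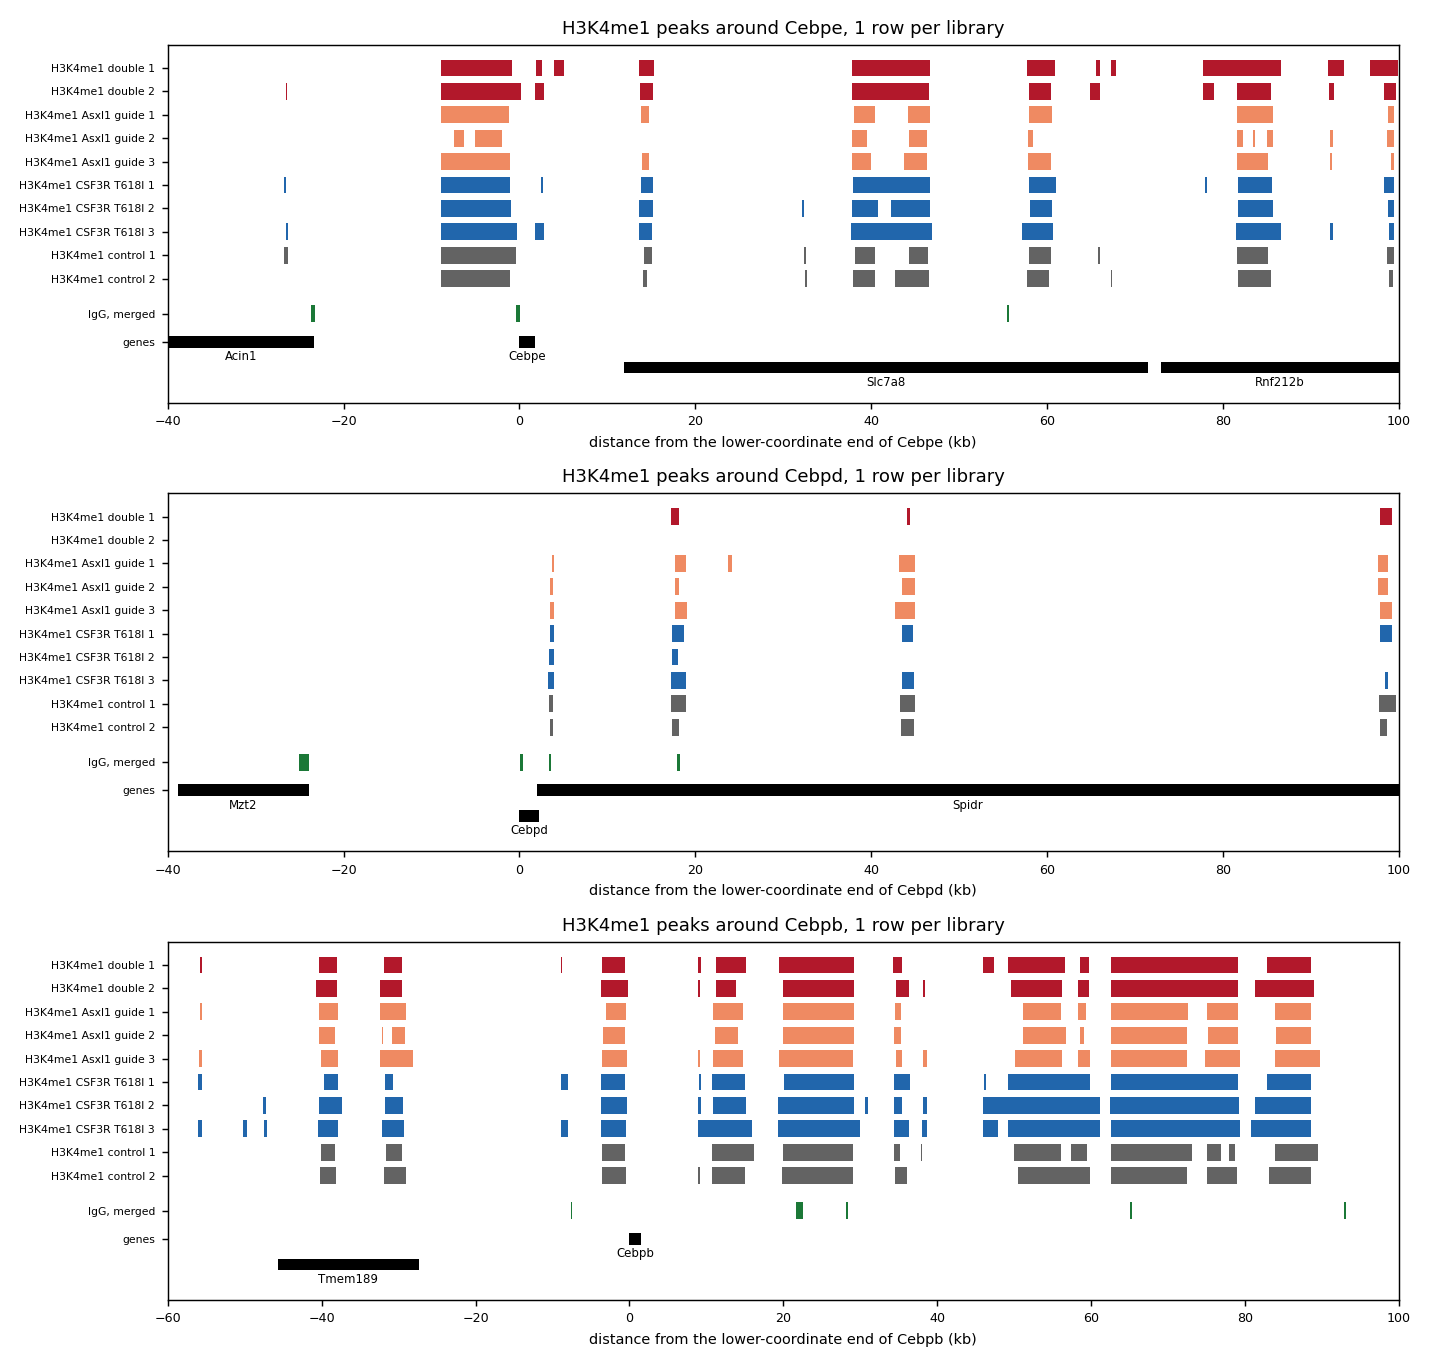
Map of H3K4me1 peaks around Cebpe, Cebpd and Cebpb by distance in kb from the lower-coordinate end of each gene, with 1 row per library, then the merged IgG peaks and named genes. Double libraries show broad peaks in Slc7a8 near Cebpe, as CSF3R T618I libraries do, and no peak next to Cebpd, and the broad blocks right of Cebpb are present in all 10 libraries.

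Within 100 kb, H3K4me1 covered more around Cebpb than around any other of the 5 genes. The mean over the 10 libraries was 0.278 for Cebpb, 0.156 for Cebpa, 0.128 for Cebpg, 0.124 for Cebpe and 0.0175 for Cebpd, against a median of 0.0370 over the 11420 windows tested. In this order the ranges of Cebpa, Cebpg and Cebpe overlapped (0.119 to 0.190, 0.0895 to 0.152 and 0.0570 to 0.192), while Cebpb (0.227 to 0.354) lay above and Cebpd (0 to 0.0284) below. The windows of Cebpa and Cebpg share much of their length. The mean of Cebpb was above that of 99.9% of all protein-coding genes.

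Around Cebpb, CSF3R T618I libraries had the widest coverage. It was 0.281 and 0.282 in double libraries, 0.241, 0.227 and 0.266 in Asxl1 guide libraries, 0.285, 0.327 and 0.354 in CSF3R T618I libraries, and 0.251 and 0.266 in control libraries. CSF3R T618I libraries lay above control libraries without overlap, as they did at 32.4% of the 11420 windows tested. The difference of 0.064 (SE 0.018) was not called (limma adjusted p = 0.0742), where 8.51% of windows were. It was called in 1 of 10 fits that left out 1 library. That fit was without CSF3R T618I replicate 1, the lowest of its group, with 0.082 and limma adjusted p = 0.0176. Over the 10 fits the difference ran from 0.048 to 0.082. The double minus CSF3R T618I difference was -0.041 (SE 0.018, limma adjusted p = 0.182).

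Of 15 regions within 100 kb of Cebpb, 10 were seen in all libraries and none was called in any comparison. The largest differences among them were in regions that 2 to 5 libraries listed, such as chr2:167680001-167680900, with a mean fraction of 0.11 in double, 0 in Asxl1 guide, 0.67 in CSF3R T618I and 0 in control cells. Its lowest limma adjusted p was 0.212. The others were chr2:167632901-167633350 and chr2:167609051-167609450, with lowest limma adjusted p of 0.359 and 0.250. Among the long blocks, chr2:167734951-167750100 was covered over 10000 and 8050 bp in double, 6000, 6150 and 7650 bp in Asxl1 guide, 10900, 15150 and 13750 bp in CSF3R T618I and 8100 and 9350 bp in control libraries. CSF3R T618I against control cells gave 0.30 there, with limma adjusted p = 0.145. The next block, chr2:167751451-167768300, was covered over 16500 and 16600 bp in double, 14100, 13800 and 14450 bp in Asxl1 guide, 16550, 16750 and 16750 bp in CSF3R T618I and 13150 and 13800 bp in control libraries. Double libraries lay above Asxl1 guide libraries there and CSF3R T618I libraries above control libraries, and the lowest limma adjusted p was 0.181. Among the 22842 regions tested, CSF3R T618I lay above all control libraries at 19.5%, and double above all Asxl1 guide libraries at 23.4%.

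Around Cebpg and Cebpe the 100 kb values followed those of the 5 kb windows. For Cebpg they were 0.0926 and 0.0895 in double libraries, 0.144, 0.127 and 0.142 in Asxl1 guide libraries, 0.123, 0.122 and 0.152 in CSF3R T618I libraries, and 0.144 and 0.145 in control libraries. Both double libraries were the lowest, with -0.041 (SE 0.009) against CSF3R T618I cells (limma adjusted p = 0.0383) and -0.047 (SE 0.009) against Asxl1 guide cells (limma adjusted p = 0.0162). All double libraries lay below all CSF3R T618I libraries at 34.4% of the 11420 windows tested, and below all Asxl1 guide libraries at 19.4%. Of all windows 8.06% were called in the first comparison, 6.54% lower, and 14.5% in the second, 5.25% lower. The first call was lost in 8 of 10 fits that left out 1 library (adjusted p 0.0298 to 0.142) and the second in 4 of 10 (0.00421 to 0.0832), and both were lost with no filter (adjusted p = 0.104 and 0.0576) and with IgG-overlapping peaks left out (-0.011 and -0.016, adjusted p = 0.430 and 0.229).

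For Cebpe the 100 kb values were 0.192 and 0.157 in double libraries, 0.106, 0.0570 and 0.102 in Asxl1 guide libraries, 0.135, 0.121 and 0.154 in CSF3R T618I libraries, and 0.110 and 0.110 in control libraries. Double libraries were the highest, and coverage rose by 0.086 (SE 0.016) against Asxl1 guide cells (limma adjusted p = 0.0135), where 9.26% of windows were called higher. Against CSF3R T618I cells the difference was 0.038 (SE 0.016, limma adjusted p = 0.168). Of the 11420 windows tested, 6.88% had all double above all CSF3R T618I libraries, and 23.9% had all double above all Asxl1 guide libraries. The call was lost without double replicate 1 (adjusted p = 0.106), with no filter (adjusted p = 0.0586) and with IgG-overlapping peaks left out (adjusted p = 0.123).

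For Cebpa the 100 kb values were 0.119 and 0.131 in double libraries, 0.170, 0.145 and 0.174 in Asxl1 guide libraries, 0.143, 0.147 and 0.190 in CSF3R T618I libraries, and 0.169 and 0.176 in control libraries. Double libraries were the lowest, but the lowest limma adjusted p was 0.107, against Asxl1 guide cells. That difference was called in 1 of 10 fits that left out 1 library, the fit without CSF3R T618I replicate 3 (limma adjusted p = 0.0306). Over the 10 fits it ran from -0.047 to -0.032. All double libraries lay below all Asxl1 guide libraries at 19.4% of windows, and below all CSF3R T618I libraries at 34.4%. For Cebpd the 100 kb values were 0.0133 and 0 in double, 0.0237, 0.0166 and 0.0269 in Asxl1 guide, 0.0222, 0.00668 and 0.0203 in CSF3R T618I and 0.0284 and 0.0168 in control libraries. The lowest limma adjusted p for Cebpd was 0.159. None of the 5 genes was called in Asxl1 guide against control cells, where 0.00876% of windows were, or for the interaction, where 0.0% of 11420 windows were. At an unadjusted p under 0.05 in limma, 0 and 2 of the 5 genes passed, and 1008 of all windows for the interaction.

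**Figure D4:**
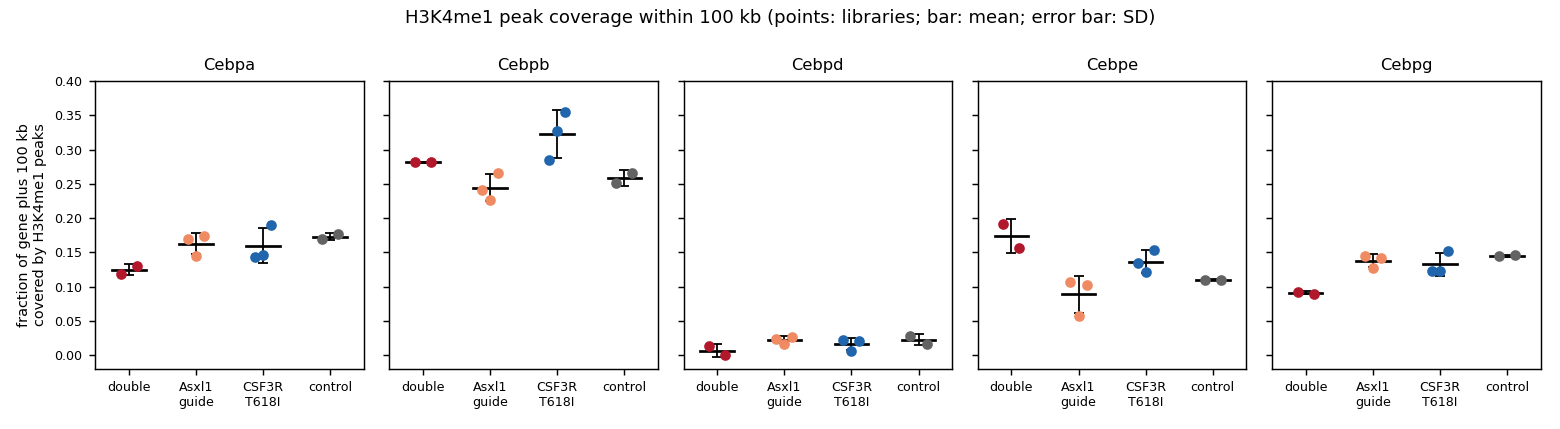
Fraction of the gene plus 100 kb that lay in H3K4me1 peaks for the 5 C/EBP genes, with 1 point per library, the mean as a bar and the SD as an error bar, in double (n = 2), Asxl1 guide (n = 3), CSF3R T618I (n = 3) and control (n = 2) cells. Cebpb had the widest coverage and Cebpd the least, and double libraries were lowest at Cebpg and highest at Cebpe.

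In all, 41 H3K4me1 regions lay within 100 kb of the 5 genes, 21 of them seen in all 10 libraries. In double against CSF3R T618I cells 1 was called higher and 3 lower, where 5.0% and 4.59% of all regions were called. The higher one, chr14:54775301-54776400, is the region that entered the test through the double libraries. In double against Asxl1 guide cells 3 were called higher and 3 lower, where 11.5% and 5.59% were. The higher ones were all near Cebpe, and the lower ones were near Cebpg, Cebpa or Cebpd. None was called in Asxl1 guide against control cells (0.994% of all regions), in CSF3R T618I against control cells (8.77%) or for the interaction (4.21%), with 1, 8 and 5 of 41 at an unadjusted p under 0.05 in limma, against 1853, 5023 and 3187 of all 22842 regions. Of the 41 regions, 18 also touched an H2AK119ub peak in at least 1 library, 0 an H3K27me3 peak and 9 an IgG peak.

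The genes whose coverage was most like that of each C/EBP gene over the 30 libraries of the 3 marks were found by Pearson correlation, which reflects the contrast between marks as well as genotype. For Cebpa they were Itgb7 (r = 0.925) and Ski (r = 0.912), and for Cebpg Gng7 (r = 0.938) and Zfp692 (r = 0.930). For Cebpe they were Alg9 (r = 0.995) and Ccl4 (r = 0.992), and for Cebpd Acad12 (r = 0.977) and Ndrg1 (r = 0.959). Fam207a (r = 0.990) was among them for Cebpb. The points share their libraries, whose peak lists differ in length, and these values are descriptive.

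Genes known to act on or with C/EBP factors were described as a list of 26. For H3K4me1 in the gene plus 5 kb, 16 were tested, and double against CSF3R T618I cells had 1 higher and 3 lower, where 2.26% and 8.38% of all windows were called. The median difference was -0.037 against -0.025 over all windows. The higher one was Batf3, a leucine-zipper factor, at 0.117 ± 0.038 in double cells and 0.0260 ± 0.0226 in CSF3R T618I cells (SD, n = 2 and 3; limma adjusted p = 0.0441). The lower ones were Trib1, whose product drives the degradation of C/EBPα, Myb, a progenitor factor, and Socs3, a brake on G-CSF receptor signalling. Trib1 had 0.0935 ± 0.0709 in double cells and 0.351 ± 0.043 in CSF3R T618I cells (SD, n = 2 and 3; limma adjusted p = 0.00966).

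Against Asxl1 guide cells, double cells had 2 of these 16 higher and 4 lower, where 9.98% and 7.83% of all windows were called. The higher ones were Gfi1, a repressor needed in granulocytes, at 0.337 ± 0.015 in double cells and 0.167 ± 0.033 in Asxl1 guide cells (limma adjusted p = 0.00264), and Stat5a, a STAT factor (limma adjusted p = 0.0166). Stat5a had 0.0845 ± 0.0286 in double, 0.0033 ± 0.0056 in Asxl1 guide and 0 ± 0 in control cells (SD, n = 2, 3 and 2). No Asxl1 guide or control library reached the minimum there, so its call follows in part from how windows were selected. Trib1, Myb and Socs3 were again lower, with limma adjusted p of 0.0259, 0.0122 and 0.00848. In the 100 kb window Socs3 went the other way in this comparison, with 0.311 ± 0.007 in double cells and 0.209 ± 0.014 in Asxl1 guide cells (SD, n = 2 and 3; limma adjusted p = 0.00694). The list's median difference was -0.024, against -0.004 over all windows.

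For the Polycomb marks, 6 of these genes were tested for H3K27me3 and 15 for H2AK119ub. H3K27me3 was higher in CSF3R T618I than in control cells at 3 of 6, Gata2, Klf4 and Irf8, where 2.59% of windows were called higher. It was lower in double than in CSF3R T618I cells at 2 of 6, Gata2 and Irf8, where 10.1% were called lower. Single libraries decide both shares: no window was called higher without either control library and 1052 were without Asxl1 guide replicate 2, against 100 in all libraries, and none was called lower without either double library, against 388. Irf8, a monocyte-lineage factor that restrains C/EBPα and reached the minimum only in CSF3R T618I libraries, had 0 ± 0 in double cells and 0.143 ± 0.022 in CSF3R T618I cells (SD, n = 2 and 3; limma adjusted p = 0.0121). H2AK119ub was higher in double than in Asxl1 guide cells at 7 of 15, the named ones being Gata2, Batf3 and Runx1, where 9.28% of windows were called higher. Those 396 windows were 1 with covered length as a covariate, the double lists covering 22.6 and 39.1 Mb and the Asxl1 guide lists 11.8 to 16.7 Mb, and 80 to 1092 on leaving out 1 library. The list's median difference was 0.106, against 0.045 over all windows. Against CSF3R T618I cells, Runx1 was higher in double cells and Stat5a lower (limma adjusted p = 0.0307 and 0.0353), where 3.51% and 5.41% of windows were called. Stat5a reached the minimum only in CSF3R T618I libraries, so its call follows in part from that selection. H2AK119ub was lower in Asxl1 guide than in control cells at 2 of 15, Gata2 and Fos, where 6.16% were called lower. The 263 windows called lower became 31 with covered length as a covariate and 20 to 98 on leaving out 1 Asxl1 guide library. Asxl1 guide lists covered 11.8 to 16.7 Mb and control lists 19.9 and 21.2 Mb.

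Granulocyte genes known as C/EBP targets were described as a list of 28, of which 27 were tested for H3K4me1 in the gene plus 5 kb. In CSF3R T618I against control cells 5 were higher, Cd177, Fpr1 and Retnlg by the largest amounts, and 1 was lower, Csf1r, the receptor gene of the monocyte lineage. Of all windows 7.5% were called higher and 1.78% lower, and the median difference was 0.073, against 0.010 over all windows. Cd177, a neutrophil surface protein gene, had 0.459 ± 0.045 in CSF3R T618I cells and 0.0085 ± 0.0013 in control cells (SD, n = 3 and 2; limma adjusted p = 0.000118). In double against CSF3R T618I cells 0 of 27 were higher and 6 were lower, where 2.26% and 8.38% of all windows were called, with a median difference of -0.095 against -0.025 over all windows. Those with the largest falls were S100a9 (-0.40), Cd177 (-0.36) and Retnlg (-0.28), with limma adjusted p of 0.00795, 0.00030 and 0.00260.

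Against Asxl1 guide cells, double cells had 4 of these 27 target genes higher and 2 lower, where 9.98% and 7.83% of all windows were called, with a median difference of 0.021 against -0.004 over all windows. The named higher ones were Fpr1, Prtn3 and Mmp8, which encode a chemoattractant receptor and 2 granule proteases, with limma adjusted p of 0.00276, 0.00199 and 0.00337. The lower ones were Fcnb and Csf1r (limma adjusted p = 0.0246 and 0.0182). Cd177 was the one target gene called for the interaction, at -0.36 (limma adjusted p = 0.00531), where 0.502% of windows were called lower. For H2AK119ub 9 target genes were tested, and Mmp8, S100a8 and Fcnb were higher in double than in CSF3R T618I cells (limma adjusted p = 0.00924, 0.0307 and 0.0411), where 3.51% of windows were called higher. Fcnb, which had H2AK119ub in double libraries alone, was also higher against Asxl1 guide cells (limma adjusted p = 0.0407). It was tested only through the double libraries, so both of its calls follow in part from that selection. For H3K27me3 5 were tested and none was called in any comparison, where up to 10.2% of windows were.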

How the data were processed

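CUT&Tag was done with a commercial kit, per the labels' protocols, on HoxB8 cells of 4 genotypes 48 h after estrogen removal. Bowtie2 2.4.1, deepTools 3.5 and the mm10 build are listed, per the submitters' processing notes, while no source used here names the peak caller. The deposited files hold peak positions in bp, a unit other than counts or signal, with no height or score. Peak widths ran in steps of 50 bp from 200 bp. Depth is therefore unknown, and no counting interval can be given.

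Per library, the fraction of each gene plus 5 kb (or 100 kb) in peaks was computed for 21883 protein-coding genes of RefSeq's GRCm38.p6 table, which gives no strand, and for H3K4me1 peaks merged over the 10 libraries and seen in at least 2. A group's value is the mean ± SD of its libraries. Windows reaching 0.05 (0.01 for 100 kb) in at least 2 libraries entered limma 3.58.1 (R 4.3.3) with 1 mean per genotype, 2-sided, with Benjamini-Hochberg adjustment over all windows. On simulated shifts of 0.3 in the double libraries of 200 windows, the fit recovered 97.5% for H3K4me1 gene windows, 99.5% for 100 kb windows, 83.5% for H2AK119ub and 71.5% for H3K27me3. For merged regions it recovered 33.5% of shifts of 0.9. The largest H3K4me1 difference at a C/EBP gene was 0.21 at 5 kb and 0.086 at 100 kb. Both are below the simulated 0.3, and recovery of differences of that size was not simulated. Python 3.11.15, numpy 2.4.6, pandas 2.3.3 and matplotlib 3.10.9 were used.

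The members and gene lists were chosen with earlier results of these data known. Beyond the 5 genes, the text names the 2 most alike genes per member, up to 3 called genes per direction of each list, called regions, some of the regions seen in all 10 libraries, and up to 3 regions with the largest change where none was called. Some items that this rule or the marker lists would name are not reported here. No 2 libraries of a mark were identical, the covered-length overlap (Jaccard) being at most 0.729. Alternatives were other window sizes, any overlap, no filter, removal of short or IgG-overlapping peaks, covered length as a covariate, a replicate block, regions in at least 3 libraries, and leaving out each library.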

Additional observations from a re-analysis of the deposited data

How the results depend on the processing

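Counts of C/EBP genes or nearby regions called follow. In the gene plus 5 kb, H3K4me1 in double against CSF3R T618I cells called 2 genes, and 1 with 2 kb or 10 kb windows, with any overlap or with peaks under 400 bp left out, and 0 with IgG-overlapping peaks left out. Double against Asxl1 guide cells called 2, and 1 with any overlap or no filter and 0 with 2 kb windows or IgG-overlapping peaks left out. The interaction called 0, and 1 with any overlap. In the gene plus 100 kb, double against CSF3R T618I cells called 1, and 2 with the covered length as a covariate and 0 with no filter or IgG-overlapping peaks left out. Double against Asxl1 guide cells called 2, and 4 with the covariate and 0 with no filter or IgG-overlapping peaks left out. The interaction called 0, and 1 with the covariate. For regions, double against CSF3R T618I cells called 4, and 1 with any overlap and 2 with IgG-overlapping peaks left out. Double against Asxl1 guide cells called 6, and 1 with any overlap, and the interaction called 0, and 1 with any overlap. Any overlap discards the length of a peak, and the causes of the other changes were not tested.

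Leaving out each library in turn gave 0 to 2 genes in both 5 kb comparisons. At 100 kb it gave 0 to 2 in double against CSF3R T618I, 0 to 3 in double against Asxl1 guide and 0 to 1 in CSF3R T618I against control cells. For regions it gave 3 to 8 in both double comparisons, 0 to 1 in Asxl1 guide against control, 0 to 2 in CSF3R T618I against control cells and 0 to 4 for the interaction. The difference turned round for Cebpe H3K4me1 in double against Asxl1 guide cells with IgG-overlapping peaks left out (-0.00796, adjusted p = 0.984). It did so for Cebpg H2AK119ub with the covariate (-0.038, adjusted p = 0.783), where neither value was called.

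Same-numbered libraries did not deviate together in every pair (r from -0.0961 to 0.412 over 13 pairs for H3K4me1 5 kb windows, 8 over 0.1, and from -0.0586 to 0.663 for 100 kb windows, 11 over 0.1), so the numbers are not taken as pairs. With the replicate number as a block, 5 kb counts were again 2 and 2, with Cebpd no longer among the first (-0.046, adjusted p = 0.0770). At 100 kb the block gave 2 genes in double against CSF3R T618I, 3 in double against Asxl1 guide and 1 in CSF3R T618I against control cells (Cebpb, adjusted p = 0.0477). Regions were 3 and 5 with the block. Depth is unknown, and peaks near the caller's limit cannot be told from noise.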
